A study of Homo sapiens with 18 samples.

Results

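The genes described here are 10 members of the Eph receptor and ephrin families: the 6 receptor genes EPHA1, EPHA2, EPHA4, EPHB2, EPHB3 and EPHB4, and the 4 ligand genes EFNA1, EFNA4, EFNB1 and EFNB2. They were chosen by gene symbol, and all 10 were present among the 58735 genes of both tables of read counts. RNA had been sequenced from A549 and H358, 2 human lung adenocarcinoma cell lines. Knockdown libraries came from A549 and H358 cells given a lentiviral short hairpin RNA against RAD21 (A549 shRAD21 and H358 shRAD21), and their controls from cells given a control vector (A549 shNC and H358 shNC). Overexpression libraries came from A549 cells made to overexpress RAD21 (RAD21OE), and their controls from A549 cells given an empty vector (EV). Each of the 6 groups had 3 libraries, 18 in all. RAD21 is a subunit of cohesin, the ring complex that holds sister chromatids together and shapes chromatin loops, and the title of the study links it to H3K4me3, a histone mark of active promoters, and to ERK1/2 signalling. The labels do not say how many hairpin sequences were used, whether the cells were pools or single clones, or whether the 3 libraries of a group came from separate cultures. The p-values therefore reflect library-to-library spread alone, and that spread could be technical.

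Eph receptors are receptor tyrosine kinases that bind ephrins displayed on neighbouring cells, so they signal at contacts between cells. A-class receptors mainly bind ephrin-A ligands, which are anchored in the membrane by a lipid, and B-class receptors mainly bind ephrin-B ligands, which span the membrane and can signal back into the cell that carries them; EPHA4 binds both classes. The pathway controls repulsion, boundaries, adhesion and movement. EPHA2 is often highly expressed in carcinomas, where it can act without ligand, while binding of EFNA1 causes EPHA2 to be phosphorylated, internalised and degraded. EPHB4 and EFNB2 are best known as a receptor and ligand pair of veins and arteries.

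The knockdown libraries held 15155077 to 19277568 counts and the overexpression libraries 13024640 to 14276335, and levels are given as counts-per-million values (CPM) scaled by the trimmed mean of M values within each table. The tables carry different batch labels and were analysed separately. RAD21 had 101 to 132 CPM in A549 shRAD21 and 253 to 257 CPM in A549 shNC, 379 to 433 CPM in H358 shRAD21 and 569 to 603 CPM in H358 shNC, and 1306 to 1520 CPM in RAD21OE and 194 to 209 CPM in EV. No pair of groups overlapped, and the exact two-sided permutation p was 0.1 in each, which no split of 3 and 3 libraries can go below. A549 shRAD21 replicate 3 and RAD21OE replicate 3 stood apart from their own groups: the median absolute log2 difference per gene to the other libraries of the group was 0.313 and 0.304 for the first and 0.269 and 0.231 for the second, against at most 0.146 between any other libraries of a group. The log2 fold changes also followed the GC content of the transcripts across genes, with Spearman correlations of -0.33 for the A549 knockdown, 0.18 for the H358 knockdown and 0.32 for the overexpression. A refit that removed the trend of each library on GC content and then on transcript length is called GC-corrected below. Most members are GC-rich: 8 of the 10 lay between percentiles 73.3 and 91.6 of GC content among the tested genes, with EFNB2 at 55.5 and EPHA4 at 36.2. All 5 epithelial markers examined were detected in every group. Their summed level was 11270 to 13970 CPM in A549 shRAD21 and 7124 to 7547 CPM in A549 shNC, and all 5 rose by edgeR's test. It was 4603 to 4791 CPM in H358 shRAD21 and 4508 to 4812 CPM in H358 shNC. Within that sum CDH1 rose with knockdown (0.25, adjusted p = 0.0341 by edgeR). KRT8 (0.10), KRT18 (0.16), EPCAM (-0.18) and KRT19 (-0.21) did not pass in H358. The sum was 10370 to 13570 CPM in RAD21OE and 8233 to 8435 CPM in EV, but the markers did not move together. KRT8 (log2 fold change 0.49) and KRT18 (0.54) rose there. CDH1 fell (-0.36, adjusted p = 0.0322 by edgeR), and EPCAM (-0.29) and KRT19 (-0.06) did not pass. The part of these markers in the results was not tested. Lung lineage markers summed to 116 to 127 CPM in H358 shNC and to 1.35 to 1.65 CPM in A549 shNC, so the lineage genes NKX2-1, NAPSA, SFTPB and SFTPC were close to absent from A549. Only 2 of these 4 had a mean over 1 CPM in H358 shNC. NKX2-1 was higher there than in A549 shNC (log2 difference 10.7), while NAPSA did not differ by edgeR's quasi-likelihood test (0.31, adjusted p = 0.277). By the same test NKX2-1 rose with knockdown in H358 (0.35, adjusted p = 0.0102), where the lineage markers summed to 151 to 165 CPM in shRAD21. It also rose in A549 (2.94, adjusted p = 0.000695), from a level close to absent. Fibroblast markers summed to at most 47.6 CPM, endothelial markers to at most 18.1 CPM and leukocyte markers to at most 9.25 CPM in any library.

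EPHA2 made up most of the Eph receptor RNA in both lines. Because longer transcripts give more reads, levels of different genes are compared here only as CPM per kilobase of exon. In the control libraries, EPHA2 stood at 145 ± 5.16 CPM per kilobase in H358 shNC and 58.0 ± 1.92 in A549 shNC (SD, n = 3 each). That was 71.4% ± 0.74 in H358 shNC and 68.6% ± 0.23 in A549 shNC of the level summed over all 14 Eph receptor genes. EPHB4 came next, with 31.8 ± 2.24 CPM per kilobase in H358 shNC and 17.5 ± 0.53 in A549 shNC. Below these, the H358 order was EPHA1 (8.95 ± 0.17), EPHB2 (8.57 ± 0.20), EPHB3 (5.17 ± 0.22) and EPHA4 (1.44 ± 0.18). EPHA1 and EPHB2 differed by little more than their spread. In A549 shNC the remaining receptors were EPHB2 at 5.87 ± 0.52, EPHB3 at 0.27 ± 0.13, EPHA4 at 0.13 ± 0.02 and EPHA1 at 0.05 ± 0.03 CPM per kilobase, and the libraries of EPHB3 and EPHA4 overlapped.

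The ligand genes were ordered differently in the 2 lines. In H358 shNC, EFNA1 had 19.3 ± 1.37 CPM per kilobase, EFNB2 11.8 ± 0.89, EFNA4 10.5 ± 1.00 and EFNB1 0.80 ± 0.03, and the libraries of EFNB2 and EFNA4 overlapped. In A549 shNC, EFNA1 had 6.03 ± 0.31, EFNB1 4.78 ± 0.21, EFNA4 4.06 ± 0.39 and EFNB2 0.50 ± 0.09 CPM per kilobase. The ephrin with the highest level in A549 shNC was EFNA5, which is not among the 10, at 9.87 ± 0.11 CPM per kilobase, against 7.26 ± 0.30 in H358 shNC.

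**Figure D1:**
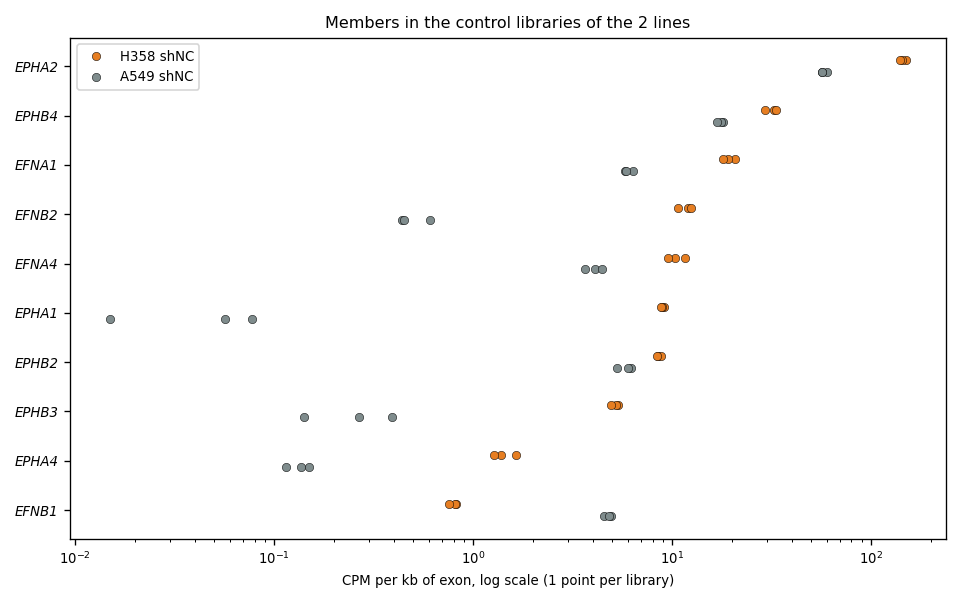
Level of each member in the control libraries, in CPM per kilobase of exon on a log scale, with 1 point per library (H358 shNC orange, A549 shNC grey). EPHA2 is highest in both lines, and EFNB1 is the only member drawn further left in H358 than in A549.

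All 10 members differed between the control libraries of the lines, 9 higher in H358 and 1 lower, where 76% of the 18939 genes tested differed (39.1% higher and 36.8% lower) by edgeR's quasi-likelihood test at an adjusted p under 0.05. The median log2 difference of the members, H358 shNC over A549 shNC, was 1.53, and that of all tested genes was 0.05. The differences were 7.41 for EPHA1 (SE 0.20), a receptor that A549 held at 6, 4 and 1 reads and H358 at 779, 879 and 697 reads. They were 4.54 for EFNB2 (SE 0.14), 4.25 for EPHB3 (SE 0.20) and 3.41 for EPHA4 (SE 0.20), and between 0.55 and 1.68 for EPHB2, EPHB4, EPHA2, EFNA4 and EFNA1. EFNB1 went the other way, at -2.58 (SE 0.18), with 2.72, 2.68 and 2.51 CPM in H358 shNC and 16.4, 15.1 and 16.0 CPM in A549 shNC. EFNB1 and EFNB2, both ephrin-B ligands, thus took opposite places in the 2 lines: EFNB2 had 54.1, 60.2 and 62.8 CPM in H358 shNC and 3.05, 2.21 and 2.27 CPM in A549 shNC. The adjusted p-values of the 10 lay between 1.73e-16 and 6.51e-05. The control groups of all 10 members did not overlap, where 81% of tested genes had groups apart. Of the 11 other family genes tested, 5 were higher in H358 shNC and 4 lower, with a median log2 difference of 0.12. The balance of the 10 members was thus not that of the rest of the family. In bulk RNA, fewer cells that express a gene and less RNA per cell cannot be told apart.

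The genes lie on 6 chromosomes in hg38. EPHA2 (chr1:16124337-16156087, minus strand) and EPHB2 (chr1:22710839-22921500, plus strand) are on the short arm of chromosome 1. EFNA4 (chr1:155063731-155069553) and EFNA1 (chr1:155127460-155134857), both on the plus strand, flank EFNA3 in a cluster of ephrin-A genes. EPHB4 (chr7:100802565-100827521) and EPHA1 (chr7:143390289-143408892) are on the minus strand of chromosome 7. EPHA4 (chr2:221418027-221574202, minus), EPHB3 (chr3:184561784-184582409, plus), EFNB2 (chr13:106489731-106535662, minus) and EFNB1 (chrX:68828997-68842147, plus) stand alone. Of the annotated exon length of EFNA4, 14.96% is shared with a readthrough gene on the same strand, and of that of EFNB2, 26.2% is covered by a gene on the other strand, so their counts are less certain. The labels do not say whether reads were assigned by strand.

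The promoters of the 5 members called in A549 under knockdown or overexpression are shown so that their composition can be compared; they are taken from RefSeq (GRCh38.p14), run from 250 bases before to 50 after the annotated start, and were matched for all 10 members. Capitals mark each match to the GC box GGGCGG or its reverse CCGCCC and, in EPHA2, to the cyclic AMP response element TGACGTCA; neighbouring matches can overlap. The windows are chr1:16156020-16156319 (minus) for EPHA2, chr2:221574153-221574452 (minus) for EPHA4, chr1:22710589-22710888 (plus) for EPHB2, chr7:100827474-100827773 (minus) for EPHB4 and chr1:155127626-155127925 (plus) for EFNA1, each 300 bases, 5′ to 3′.
EPHA2: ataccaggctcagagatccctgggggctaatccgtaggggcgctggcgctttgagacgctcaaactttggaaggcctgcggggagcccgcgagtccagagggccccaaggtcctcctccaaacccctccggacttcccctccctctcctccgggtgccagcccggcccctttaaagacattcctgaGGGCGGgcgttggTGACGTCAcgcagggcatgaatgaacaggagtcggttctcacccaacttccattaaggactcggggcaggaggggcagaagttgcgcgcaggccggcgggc
EPHA4: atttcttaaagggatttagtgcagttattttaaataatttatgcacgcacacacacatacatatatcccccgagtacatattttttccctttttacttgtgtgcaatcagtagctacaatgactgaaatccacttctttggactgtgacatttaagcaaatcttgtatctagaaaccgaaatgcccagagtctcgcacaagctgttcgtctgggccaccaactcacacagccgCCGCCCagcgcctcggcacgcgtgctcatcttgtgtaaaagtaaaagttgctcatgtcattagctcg
EPHB2: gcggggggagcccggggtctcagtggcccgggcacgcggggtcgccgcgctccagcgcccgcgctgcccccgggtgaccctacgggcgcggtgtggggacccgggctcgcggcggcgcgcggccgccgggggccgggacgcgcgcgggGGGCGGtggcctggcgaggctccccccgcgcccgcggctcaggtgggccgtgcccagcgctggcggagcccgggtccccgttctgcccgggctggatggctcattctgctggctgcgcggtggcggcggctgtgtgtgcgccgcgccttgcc
EPHB4: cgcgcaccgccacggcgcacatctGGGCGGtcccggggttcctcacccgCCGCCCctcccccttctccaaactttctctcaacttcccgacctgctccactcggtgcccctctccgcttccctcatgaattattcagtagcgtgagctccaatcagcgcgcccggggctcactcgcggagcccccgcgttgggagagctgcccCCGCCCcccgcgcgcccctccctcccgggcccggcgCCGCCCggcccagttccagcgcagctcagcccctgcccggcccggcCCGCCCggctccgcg
EFNA1: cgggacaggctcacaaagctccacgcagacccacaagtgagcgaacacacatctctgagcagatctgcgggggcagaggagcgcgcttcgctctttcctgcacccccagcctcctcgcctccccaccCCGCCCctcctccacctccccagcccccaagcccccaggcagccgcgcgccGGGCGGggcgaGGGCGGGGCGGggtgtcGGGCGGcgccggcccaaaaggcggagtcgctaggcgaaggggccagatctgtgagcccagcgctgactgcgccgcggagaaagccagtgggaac
Their base composition ranged widely: GC content was 43% for EPHA4, with 12 CpG dinucleotides, against 64.3% for EPHA2 (20 CpG), 71.7% for EFNA1 (28), 74.3% for EPHB4 (36) and 83% for EPHB2 (48). On either strand, all 10 member promoters held a GC box, a motif found in 45% of the 35116 promoters searched. EPHB4, EFNA1 and EPHA1 each had 5. The RefSeq start used for EFNA1 lay 416 bases from the start of the counted gene, so its window lies wholly inside the gene. For the other members the distance was at most 36 bases. The response element occurred in EPHA2 alone among the 10, beginning 51 bases before the start, and in 1.85% of all promoters. No member promoter held the AP-1 letters TGANTCA (7.71% of all promoters), the ETS letters CCGGAAGT (4.14%) or the core of the CTCF motif (2.41%), and 1 of the 10, EFNB2, held TATAAA (11.5%). A match is a description of letters and does not show that a factor binds there, nor does its absence show the reverse.

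In A549, knockdown of RAD21 went with more EPHA4 RNA and less EPHB4 and EPHA2 RNA. Of the 10 members, 1 rose and 2 fell at an adjusted p under 0.05, where 25.2% of the tested genes were called (14.4% higher and 10.9% lower), so 3 of 10 was near the background. The median log2 fold change of the members was -0.14, against 0.00 for all tested genes.

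EPHB4, the B-class receptor of ephrin-B2, had 71.8, 75.3 and 99.7 CPM in A549 shRAD21 and 115.8, 113.7 and 109.1 CPM in A549 shNC. Every shRAD21 library lay below every shNC library, with replicate 3 of shRAD21 the nearest to the controls. The log2 fold change was -0.46 (SE 0.10, adjusted p = 0.00182). It was -0.62 without shRAD21 replicate 3, and the GC-corrected value was -0.26 (adjusted p = 0.000168).

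EPHA2, the main receptor gene of these cells, had 167, 170 and 247.5 CPM in A549 shRAD21 and 250.5, 236 and 237 CPM in A549 shNC. shRAD21 replicates 1 and 2 were well below the controls and replicate 3 was among them, so the groups overlapped. Leaving out replicate 3 gave -0.52 (adjusted p = 7.19e-13), and the GC-corrected value was -0.10 (adjusted p = 0.12), against -0.31 (SE 0.10, adjusted p = 0.0373) in the fit of all libraries. The call was lost in 7 of 14 alternatives.

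EPHA4, the receptor that binds both ephrin classes, moved the other way at a low level: 38, 35 and 45 reads in A549 shRAD21 and 17, 13 and 16 reads in A549 shNC. Every shRAD21 library was above every shNC library. The log2 fold change of 1.31 (SE 0.24, adjusted p = 0.000472) stayed between 1.16 and 1.40 and past the threshold in all 14 alternatives. EPHA4 is also the member with the lowest GC content.

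The other receptors did not pass the test. EPHB3 had 13, 5 and 11 reads in A549 shRAD21 and 29, 18 and 9 reads in A549 shNC, with overlapping groups and a log2 fold change of -0.98 (SE 0.36, adjusted p = 0.0515). EPHB2 had 66.4, 75.8 and 93.4 CPM in A549 shRAD21 and 78.5, 66.0 and 75.7 CPM in A549 shNC (log2 fold change 0.10, SE 0.10). GC-corrected, EPHB2 passed at 0.19 (adjusted p = 0.0289), which was 1 of 14 alternatives. EPHA1 was at 1 to 7 reads per library in both groups. None of the 4 ligands passed either: EFNA1 had -0.11 (SE 0.12), EFNA4 -0.25 (SE 0.19), EFNB1 -0.18 (SE 0.15) and EFNB2 -0.06 (SE 0.20). For EFNB1 the shRAD21 libraries had 12.97, 11.6 and 17.5 CPM and the shNC libraries 16.4, 15.1 and 16.0 CPM, the third shRAD21 library again being the highest. Without that library, 1 member rose and 5 fell: EPHB3 (-1.12, adjusted p = 0.0173), EFNA4 (-0.49, adjusted p = 0.0296) and EFNB1 (-0.36, adjusted p = 0.0305) joined EPHB4 and EPHA2. The calls over all genes grew as well: 4537 rose and 3893 fell without it, against 2721 and 2059 with all libraries. Across genes, the deviation of shRAD21 replicate 3 from the A549 mean followed GC content with a Spearman correlation of 0.356. For shRAD21 replicates 1 and 2 it was -0.458 and -0.435. GC-corrected with all libraries, EPHB3 (-0.73, adjusted p = 0.117), EFNA4 (-0.02, adjusted p = 0.972) and EFNB1 (0.05, adjusted p = 0.796) did not pass. The part of GC content in these calls was not tested.

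**Figure D2:**
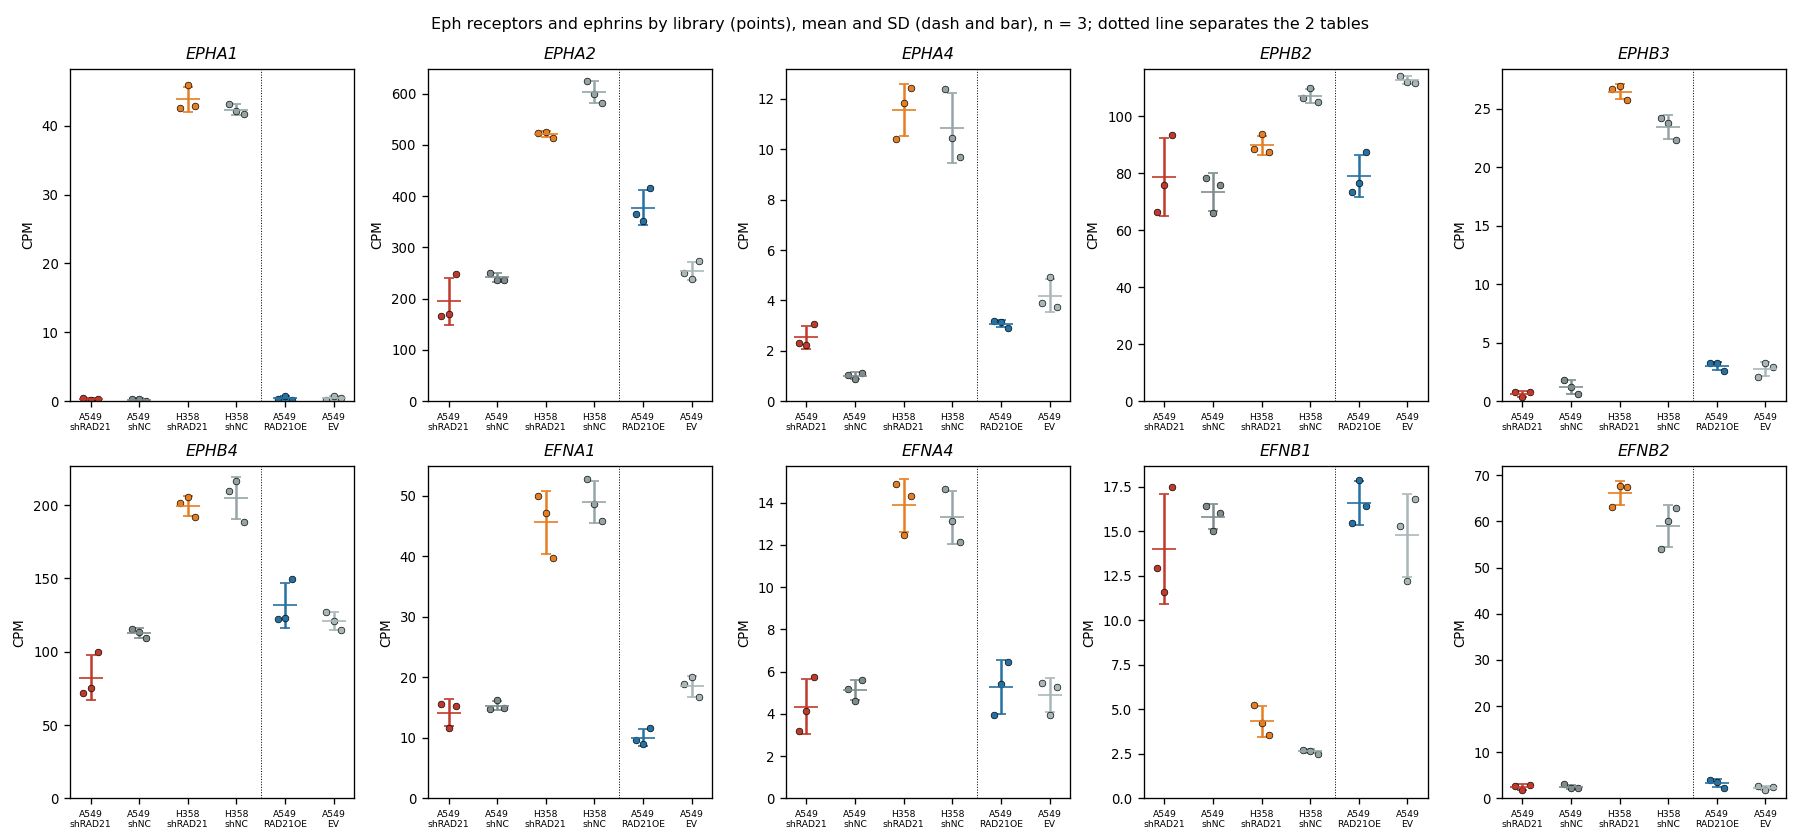
CPM of each member by library (points), with the mean (dash) and SD (bar) of 3 libraries; knockdown groups stand left of the dotted line and overexpression groups right of it. EPHA2, EPHB4 and EFNB1 show the third A549 shRAD21 library above the other shRAD21 libraries, and EFNA1 and EPHB2 are lower in every RAD21OE library than in every EV library.

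In H358, 1 of the member ligands, EFNB1, rose with RAD21 knockdown in the fit shared by the 12 knockdown libraries. None of the 6 member receptors passed in that fit, though EPHA2 and EPHB2 passed in 3 of 14 alternatives each. In the shared fit 1 of 10 members was called, where 8.4% of tested genes were called (3.78% higher and 4.62% lower). EFNB1 had 5.23, 4.22 and 3.53 CPM in H358 shRAD21 and 2.72, 2.68 and 2.51 CPM in H358 shNC, which were 91, 73 and 63 reads against 49, 56 and 42. Every knockdown library was higher than every control library. The log2 fold change was 0.71 (SE 0.20, adjusted p = 0.032). It stayed between 0.55 and 0.84 but missed the threshold in 7 of 14 alternatives, among them leaving out any 1 of 5 of the 6 H358 libraries (adjusted p up to 0.168). Per exon length, EFNB1 remained the lowest member by mean in H358 shRAD21, at 1.31 ± 0.26 CPM per kilobase, against 0.80 ± 0.03 in H358 shNC. Its shRAD21 libraries overlapped those of EPHA4 (1.53 ± 0.14).

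EPHA2 had 523, 526 and 514 CPM in H358 shRAD21 and 625, 600.0 and 582 CPM in H358 shNC. EPHB2 had 88.6, 93.7 and 87.4 CPM in H358 shRAD21 and 106.5, 110.0 and 105.1 CPM in H358 shNC. In both genes all knockdown libraries lay below all controls, yet neither passed the test. The log2 fold change was -0.21 for EPHA2 (SE 0.10, adjusted p = 0.233) and -0.25 for EPHB2 (SE 0.10, adjusted p = 0.122). GC-corrected, both passed, at -0.29 (adjusted p = 2.78e-05) for EPHA2 and -0.26 (adjusted p = 0.00512) for EPHB2. In the 6 H358 libraries alone both passed as well, at -0.21 (adjusted p = 9.64e-05) for EPHA2 and -0.25 (adjusted p = 0.000192) for EPHB2. With no filter on low counts the adjusted p was 0.0402 for EPHA2 and 0.0457 for EPHB2. Over all genes, 3264 were called GC-corrected and 4473 in the 6 libraries alone, against 1591 in the shared fit. In all, 5 of 10 members had groups that did not overlap, 3 higher (EPHB3, EFNB1 and EFNB2) and 2 lower, where 36.1% of tested genes did. EFNB2, the ligand of EPHB4, had 63.1, 67.7 and 67.5 CPM in H358 shRAD21 and 54.1, 60.2 and 62.8 CPM in H358 shNC (log2 fold change 0.16, adjusted p = 0.356). EFNB2 passed in the 6 H358 libraries alone (0.165, adjusted p = 0.0382), which was 1 of 14 alternatives. EPHB3 had 26.7, 26.9 and 25.7 CPM in H358 shRAD21 and 24.2, 23.8 and 22.3 CPM in H358 shNC (log2 fold change 0.17, adjusted p = 0.488). EPHA1 (0.05), EPHA4 (0.09), EPHB4 (-0.04), EFNA1 (-0.11) and EFNA4 (0.06) had overlapping groups.

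The knockdown effect itself differed between the lines for 4 of the 10 members, where 17.6% of tested genes differed (7.61% higher in H358 and 9.94% lower). The difference, the log2 fold change in H358 minus that in A549, was -1.22 for EPHA4 (SE 0.28, adjusted p = 0.00543), which rose in A549 and had 10.4, 11.8 and 12.5 CPM in H358 shRAD21 and 12.4, 10.5 and 9.69 CPM in H358 shNC. It was 0.88 for EFNB1 (SE 0.25, adjusted p = 0.0194), 1.15 for EPHB3 (SE 0.38, adjusted p = 0.0439) and 0.42 for EPHB4 (SE 0.14, adjusted p = 0.0389). The difference of EPHA4 passed in all 19 alternatives and that of EFNB1 in 18, while those of EPHB3 and EPHB4 missed the threshold in 12 of 19 each. For EPHA2 the difference was 0.10 (SE 0.15, adjusted p = 0.701) and turned to -0.20 (adjusted p = 0.0261) when GC-corrected. Without A549 shRAD21 replicate 3 the EPHA2 difference passed with the other sign, at 0.305 (adjusted p = 4.41e-05). For EPHB2 it was -0.35 (SE 0.14, adjusted p = 0.0924), and -0.45 (adjusted p = 0.000717) when GC-corrected. The EPHB2 difference passed in 3 of 19 alternatives. RAD21 itself was lowered less in H358 (log2 fold change -0.51) than in A549 (-1.08), with a difference of 0.57 (SE 0.12, adjusted p = 0.00228). Whether that gap had a part in the differences of the members was not tested.

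Overexpression of RAD21 in A549 went with more EPHA2 RNA and less EFNA1 and EPHB2 RNA. Of 9 members tested, EPHA1 being too low, 1 rose and 2 fell, where 27.8% of the 15462 genes tested were called (14.1% higher and 13.7% lower). The share called, 3 of 9, was again near the background, and these 3 calls held in every one of the 13 alternatives.

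EPHA2 had 365, 352 and 416 CPM in RAD21OE and 249, 239 and 274 CPM in EV. Every RAD21OE library lay above every EV library, and the log2 fold change was 0.57 (SE 0.09, adjusted p = 0.000459). It was 0.50 without RAD21OE replicate 3 and 0.44 (adjusted p = 1.01e-05) when GC-corrected. EFNA1, the ephrin-A ligand that EPHA2 binds, had 9.61, 8.92 and 11.6 CPM in RAD21OE and 18.9, 20.1 and 16.7 CPM in EV. All RAD21OE libraries were below all EV libraries, with a log2 fold change of -0.89 (SE 0.14, adjusted p = 0.000636) and a range of -0.999 to -0.804 over the alternatives. EPHB2 had 73.4, 76.5 and 87.5 CPM in RAD21OE and 114.2, 112.1 and 111.6 CPM in EV. It too separated fully, at -0.51 (SE 0.09, adjusted p = 0.00119) and at -0.60 when GC-corrected.

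The other members did not pass the test under overexpression. EPHA4 had 3.18, 3.15 and 2.91 CPM in RAD21OE and 3.90, 4.93 and 3.75 CPM in EV, and all RAD21OE libraries were below all EV libraries (log2 fold change -0.44, SE 0.20, adjusted p = 0.116). With it, 4 of 9 members had groups that did not overlap, where 45.4% of tested genes did. EFNB2 had 3.89, 3.60 and 2.33 CPM in RAD21OE and 2.58, 1.82 and 2.35 CPM in EV, with the third RAD21OE library among the controls (0.54, SE 0.26, adjusted p = 0.135); without that library it passed, at 0.73 (adjusted p = 0.0266). EPHB4 had 122, 123 and 149 CPM in RAD21OE and 127, 121 and 115 CPM in EV (0.12, adjusted p = 0.353). EPHB3 (0.14), EFNA4 (0.11) and EFNB1 (0.17) had overlapping groups.

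**Figure D3:**
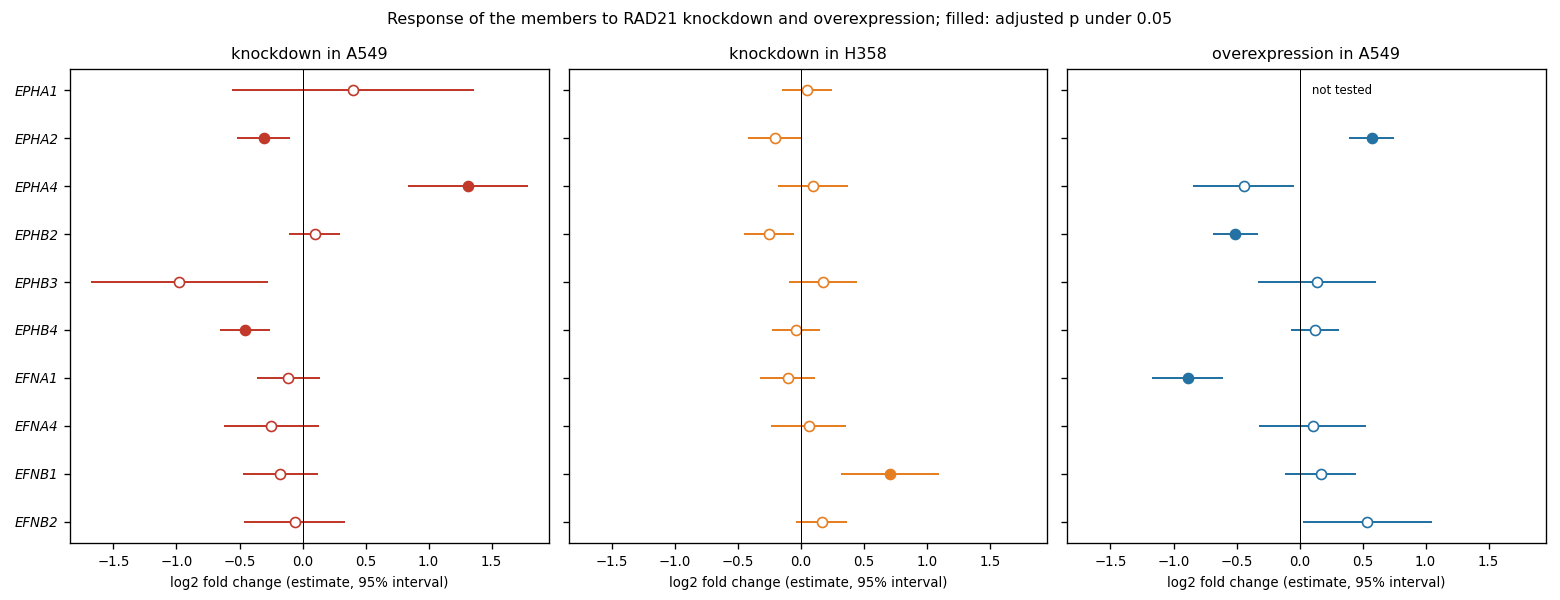
Log2 fold change of each member (point) with its 95% interval (line) in the A549 knockdown, the H358 knockdown and the A549 overexpression; filled points have an adjusted p under 0.05. EPHA4 lies furthest right in the A549 knockdown, EFNB1 in the H358 knockdown and EPHA2 in the overexpression, where EFNA1 lies furthest left.

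Set side by side, the members answered the knockdown and the overexpression in A549 in different ways; these comparisons share no libraries. EPHA2 had a log2 fold change of -0.31 under knockdown and 0.57 under overexpression, and EPHA4 1.31 and -0.44, so both had opposite signs. However, the EPHA4 value under overexpression did not pass. The EPHA2 call under knockdown was lost in 7 of 14 alternatives, among them the GC-corrected fit (-0.10, adjusted p = 0.12). EPHB2 had 0.10 and -0.51, and EFNA1 -0.11 and -0.89, and for both genes the overexpression value alone passed. EPHB4 had -0.46 and 0.12. No test of these pairs of values was made, because the tables differ in batch.

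**Figure D4:**
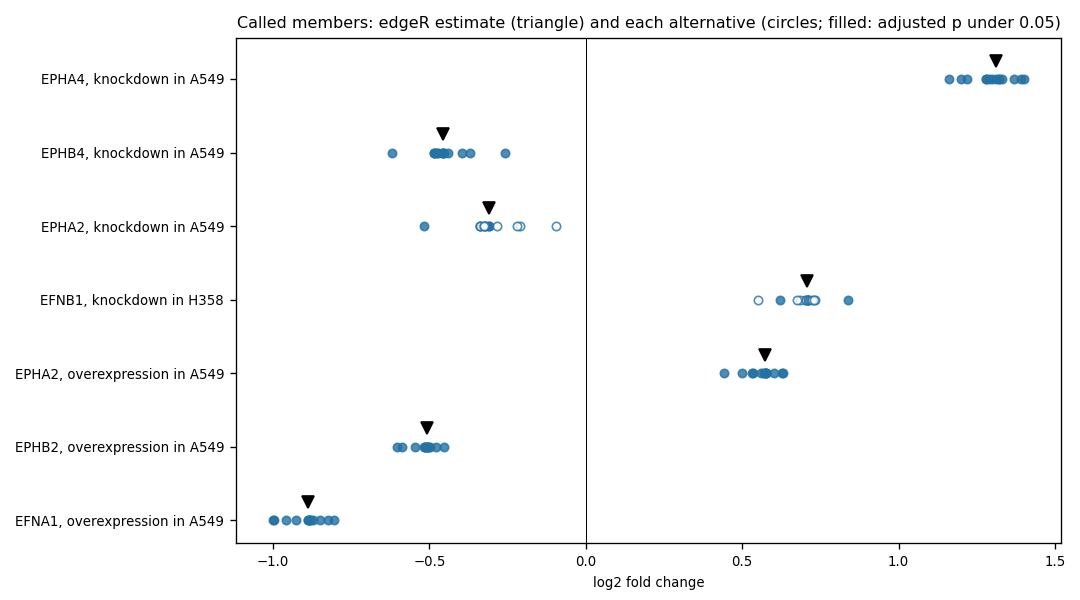
Log2 fold change of each called member with all libraries (triangle) and under each alternative (circles; filled where the adjusted p stayed under 0.05). EPHA4 and EPHB4 in the A549 knockdown and all 3 genes in the overexpression have filled circles throughout, whereas EPHA2 in the A549 knockdown and EFNB1 in the H358 knockdown have open ones.

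The make-up of the receptor and ligand RNA is given without a test. Summed over all 14 Eph receptor genes, the level was 115, 113 and 134 CPM per kilobase in RAD21OE and 91.3, 88.2 and 95.1 in EV, so every RAD21OE library was higher. EPHA2 held 75.3% ± 0.69 of it in RAD21OE and 66.7% ± 2.2 in EV, and EPHB2 5.25% ± 0.16 in RAD21OE and 9.84% ± 0.42 in EV (SD, n = 3 each). Over the 8 ephrin genes the sum was 23.0, 24.2 and 24.0 CPM per kilobase in RAD21OE and 27.4, 26.1 and 26.4 in EV, all lower with overexpression, and EFNA1 held 16.7% ± 2.2 in RAD21OE and 27.5% ± 2.8 in EV. In the knockdown of A549 the receptor sum was 59.9, 62.4 and 86.6 CPM per kilobase in shRAD21 and 88.1, 82.9 and 82.9 in shNC, the third shRAD21 library lying among the controls. In H358 it was 183, 185 and 179 in shRAD21 and 209, 205 and 195 in shNC, lower in every knockdown library, with an EPHA2 share of 68.6% ± 0.39 in shRAD21 and 71.4% ± 0.74 in shNC. The ephrin sum in H358 overlapped, at 53.3 to 58.1 in shRAD21 and 53.6 to 56.1 in shNC.

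**Figure D5:**
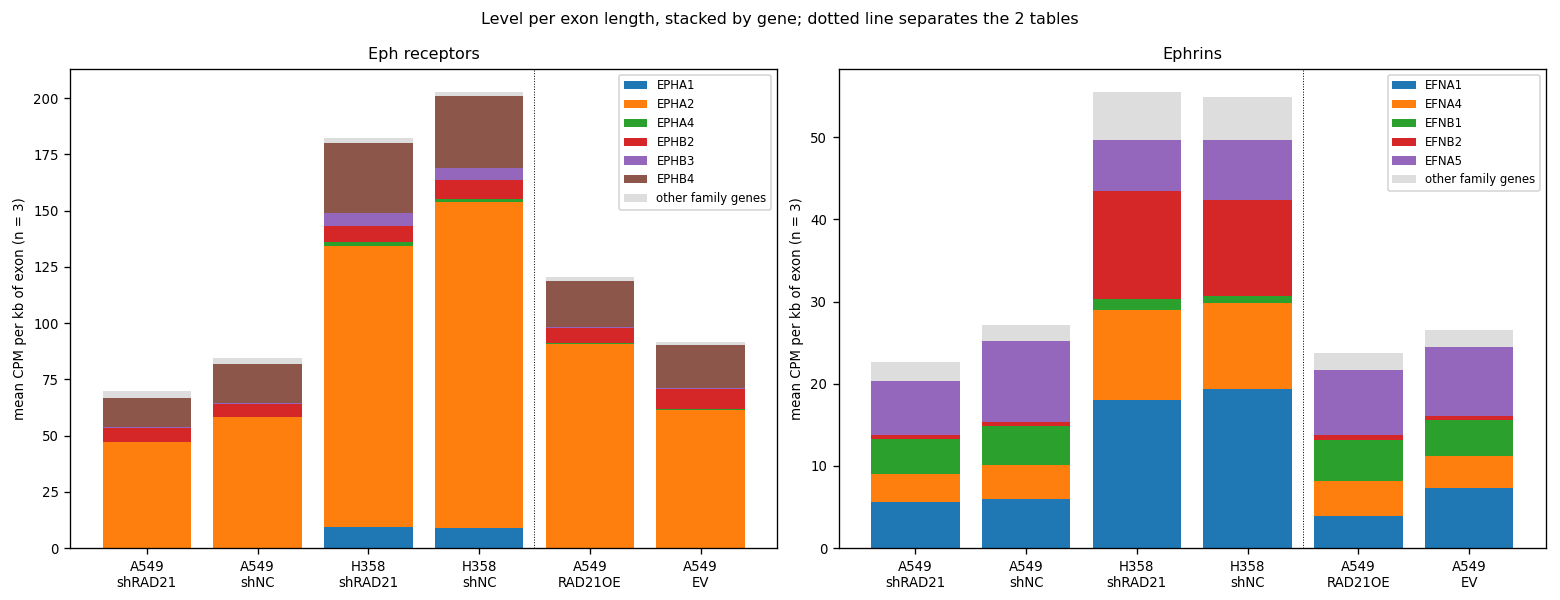
Mean CPM per kilobase of exon (n = 3) of each gene, stacked, for the Eph receptors and the ephrins in each group; the dotted line separates the tables. EPHA2 fills most of every receptor bar, and the EFNA1 block is smaller in RAD21OE than in EV.

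Among the 12 other family genes, 8 had a mean of at least 1 CPM in A549 shNC and 8 in H358 shNC. Of the 11 tested in the knockdown of A549, 2 rose and 2 fell, where 25.2% of all tested genes were called. EPHA7 had 52, 75 and 39 reads in shRAD21 and 13, 23 and 19 in shNC (log2 fold change 1.54, adjusted p = 0.000428), and EPHB6, a receptor whose kinase is inactive, had 89, 100 and 108 reads in shRAD21 and 50, 47 and 37 in shNC (1.11, adjusted p = 0.00163). EFNA5 had 32.7 to 40.4 CPM in shRAD21 and 55.9 to 57.0 CPM in shNC, lower in every library (-0.58, adjusted p = 7.1e-05), and EPHA5 fell too (-0.81, adjusted p = 0.00988). EFNA5 was the only ephrin gene of the 22 family genes called in this comparison, and its call held in all 14 alternatives. In H358, where 8.4% of all tested genes were called, EPHB1 rose (0.82, adjusted p = 0.0171) and EPHA3 fell (-0.83, adjusted p = 0.0249), and both calls were lost in some alternatives (adjusted p up to 0.102 and 0.126). EPHB6 had 0 reads in every H358 library. Of 9 tested under overexpression, 2 rose and 2 fell, where 27.8% of all tested genes were called. EPHA7 rose, with 28, 28 and 33 reads in RAD21OE and 3, 1 and 5 in EV (3.22, adjusted p = 0.000187). EPHA6 rose (1.15, adjusted p = 0.0369), and EPHA5 (-0.99, adjusted p = 0.0239) and EFNB3 (-1.21, adjusted p = 0.0106) fell, with adjusted p up to 0.145, 0.136 and 0.0572 over the alternatives. EPHA7 was higher and EPHA5 lower in both the knockdown and the overexpression of A549 by the test. EPHA10, EFNA2 and EFNA3 passed in none of the 3 comparisons, and EPHA8 was not tested.

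Genes through which Eph receptors and ephrins act were examined as a list of 57. They comprise exchange factors, adaptors and kinases, partners of ephrin-B tails, proteases and phosphatases, and downstream effectors. In the A549 knockdown 15 of the 54 tested rose and 4 fell, where 14.4% of all tested genes were higher and 10.9% lower; the balance of the list was not tested. The 4 that rose with the smallest adjusted p were GRB7, an adaptor that binds Eph receptors, at 0.94 (adjusted p = 3.07e-07), the kinase ROCK2 at 0.55, the exchange factor KALRN at 0.99, and AFDN, a scaffold of cell junctions, at 0.41. Those that fell were the adaptor SHC1 at -0.76 (adjusted p = 3.85e-05), the membrane protease MMP14 at -0.75, DOCK4, an activator of Rac, at -0.52, and the ubiquitin ligase CBL at -0.26. SHC1 had 207, 213 and 304 CPM in shRAD21 and 419.5, 405 and 404 CPM in shNC. Without shRAD21 replicate 3 the counts were 21 and 14. GC-corrected they were 19 and 10, and in a fit of the A549 libraries alone 6 and 2. Over all genes, 4537 rose and 3893 fell without shRAD21 replicate 3. GC-corrected, 3236 rose and 2293 fell, and in the A549 libraries alone 1649 and 1417, against 2721 and 2059 in the first fit. The median of the list was 0.04, against 0.00 for all tested genes.

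In H358, 2 rose and 8 fell of 54 tested, where 3.78% of all tested genes were higher and 4.62% lower, and the median of the list was -0.05 against 0 for all tested genes. PAK1, a kinase activated by Rac and Cdc42, fell to 109, 98.5 and 95.2 CPM in H358 shRAD21, against 160, 152 and 145 CPM in H358 shNC (-0.59, adjusted p = 6.4e-05). The ephexin gene NGEF (-0.44), the Ras GTPase-activating protein gene RASA1 (-0.47) and the receptor phosphatase gene PTPRF (-0.29) fell, and CHN1, a Rac GTPase-activating protein gene that acts below EPHA4 in mouse neurons, rose (0.94), as did the kinase gene ABL2 (0.31). In a fit of the H358 libraries alone 6 rose and 15 fell, GC-corrected 3 rose and 12 fell, and with any 1 library left out 0 to 2 rose and 4 to 6 fell. Over all genes, 2186 rose and 2287 fell in the H358 libraries alone and 1651 and 1613 GC-corrected, against 716 and 875 in the shared fit. With a library left out, 755 to 874 genes were called, against 1591. With overexpression 9 of 53 tested rose and 3 fell, where 14.1% of all tested genes were higher and 13.7% lower, with a median of 0.06 against -0.01. Among genes with at least 10 CPM in 3 libraries 4 rose and 3 fell. SRC, a kinase that acts with EPHA2, had 583, 610 and 716 CPM in RAD21OE and 471, 465 and 452 CPM in EV (0.46, adjusted p = 0.00163), and NGEF (0.54), MMP14 (0.83) and KALRN (0.76) rose. DOCK4 (-0.72, adjusted p = 0.000773), PTPRF (-0.29) and YES1 (-0.41) fell. Without RAD21OE replicate 3, and again when GC-corrected, 14 rose and 5 fell, whereas without any 1 of the EV libraries 4 rose and 1 fell, and without RAD21OE replicate 2 it was 5 and 1. Over all genes, 5536 were called without RAD21OE replicate 3 and 5951 when GC-corrected, against 4297 with all libraries. Without EV replicates 1, 2 and 3 in turn, 2440, 2177 and 2705 genes were called. MMP14, a protease that cleaves EPHA2, fell under knockdown and rose under overexpression in A549, whereas DOCK4 fell in both. KALRN (0.99 and 0.76), NGEF (0.28 and 0.54) and ITSN1 (0.29 and 0.27) rose in both. DOCK4 had overlapping groups under knockdown and missed the threshold there in 3 of 14 alternatives. NGEF missed it in 6 of 14 under knockdown. ITSN1 missed it in 5 of 14 under knockdown and in 9 of 13 under overexpression.

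The neighbours of the ephrin-A genes on chromosome 1 were compared with EFNA1 and EFNA4 because they lie side by side. Under overexpression 3 of the 10 genes of this stretch fell and none rose, where 27.8% of all tested genes were called (13.7% lower): EFNA1, MUC1, a membrane mucin gene (-1.25, adjusted p = 0.000407), and THBS3 (-0.43, adjusted p = 0.0151). MUC1 had 3.67, 2.85 and 4.08 CPM in RAD21OE and 7.29, 9.25 and 8.67 CPM in EV. EFNA4, which lies in the same stretch, had a log2 fold change of 0.11 (adjusted p = 0.744), and EFNA3 had 1.77 CPM in RAD21OE and 1.76 CPM in EV. The count that fell was 5 when GC-corrected, 2 among genes with at least 10 CPM in 3 libraries, and 2 without EV replicate 2, EV replicate 3 or RAD21OE replicate 2; without RAD21OE replicate 1, 3 fell and 1 rose. In the A549 knockdown THBS3 (-0.44), DPM3 (-0.69) and TRIM46 (-0.72) fell, none of which passed when GC-corrected. Without shRAD21 replicate 3, 5 genes of the stretch fell, and 1 fell without shNC replicate 1, shNC replicate 2, shRAD21 replicate 1 or shRAD21 replicate 2, and with limma-voom. Over all genes, 3893 fell without shRAD21 replicate 3, against 2059 with all libraries. In H358, MUC1 alone rose, with 92.9, 81.5 and 80.4 CPM in H358 shRAD21 and 52.4, 53.0 and 50.2 CPM in H358 shNC (0.71, adjusted p = 0.000118).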

How the data were processed

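RNA-seq read counts per gene were analysed as the authors deposited them, in one table for the knockdown and one for the overexpression. Per the submitters' processing notes, fastp, HISAT2 2.0.5 and featureCounts 1.5.0-p3 were used with hg38; their settings are not given in the sources used here. All 58735 gene IDs and positions in the deposited tables matched GENCODE 29. Genes passing filterByExpr were tested with edgeR 4.0.16 (quasi-likelihood F-test, two-sided, TMM scaling, 1 mean per group, Benjamini-Hochberg adjustment over all genes tested, R 4.3.3); the 12 knockdown libraries shared one fit and the 6 overexpression libraries another. SE is the size of the log2 fold change over the root of F. A call is an adjusted p under 0.05, and every adjusted p here is edgeR's unless said otherwise. Genes with few reads have large errors. Alternatives were DESeq2 1.42.0 size factors and its Wald test, limma 3.58.1 voom, no filter, at least 10 CPM in 3 libraries, a lowess correction for GC content and transcript length, a block for the replicate number, a fit to the 6 libraries of one line, and leaving out single libraries. The calculations were tested on simulated data. The genes named are RAD21, the 10 members, the 12 other family genes, the ephrin-A neighbours and cell type markers. Of the 57 Eph signalling genes, up to 4 risen and 4 fallen by adjusted p are named. ITSN1 is named as well because it was called in both A549 comparisons. The repeat of MMP14, DOCK4, KALRN, NGEF, ITSN1 and PTPRF across comparisons was noted after their values were seen. The members and lists were chosen with earlier results of these data known. Figures were drawn with matplotlib 3.10.9.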

Additional observations from a re-analysis of the deposited data

Results flagged for a closer look

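The response to RAD21 knockdown differed between the lines, by the test of the difference itself in edgeR, for 4 members. The log2 fold change in H358 minus that in A549 was -1.22 for EPHA4, 1.15 for EPHB3, 0.42 for EPHB4 and 0.88 for EFNB1. EPHB3 was at 5 to 29 reads per A549 library. With GC content and transcript length corrected for, the values were -1.06 (adjusted p = 0.011) for EPHA4, 0.81 (adjusted p = 0.121) for EPHB3, 0.15 (adjusted p = 0.112) for EPHB4 and 0.57 (adjusted p = 0.0484) for EFNB1.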

How the results depend on the processing

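Of the called members, 2 of 3 in the A549 knockdown (EPHA4 and EPHB4), 0 of 1 in H358, 3 of 3 in the overexpression, 1 of 4 in the difference of the lines (EPHA4) and 10 of 10 between control lines passed under every alternative. For the H358 knockdown 1 member was called, against 3 with no filter, 0 with limma-voom, 0 with the replicate block, 3 with the GC content and length correction and 4 in the 6 libraries of the line; leaving out a library gave 0 to 1, and 0 without any of shNC replicates 1, 2 and 3 and shRAD21 replicates 1 and 2. For the difference of the lines 4 members were called, against 2 with the replicate block and 1 (without H358 shRAD21 replicate 1) to 7 (without A549 shRAD21 replicate 3) with a library left out. Only without H358 shNC replicate 2, A549 shNC replicate 3 and A549 shRAD21 replicate 1 did that count stay within 1.5 times the first. For the A549 knockdown leaving out a library gave 2 to 6 members (3 with all), the highest without shRAD21 replicate 3. Genes called numbered 4780 in the A549 knockdown, 3066 in its 6 libraries alone and 3443 to 8430 with a library left out (8430 without shRAD21 replicate 3). They numbered 1591 in the H358 knockdown, 3264 after the GC correction, 4473 in its 6 libraries alone and 755 to 874 with a library left out, 3325 and 2235 to 7348 for the difference (7348 without A549 shRAD21 replicate 3), 4297 and 2177 to 5536 for the overexpression (2440, 2177 and 2705 without EV replicates 1, 2 and 3), and 14392 between control lines, or 9180 at 10 CPM or more in 3 libraries, where fewer genes were tested. Except for the last, the cause was not tested.

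Signs reversed for values that had not passed in the first fit. Among them, the EPHA2 difference of the lines passed with either sign. It was -0.196 (adjusted p = 0.0261) when GC-corrected and 0.305 (adjusted p = 4.41e-05) without A549 shRAD21 replicate 3. Under the GC content and length correction, EFNA1 (0.125) and EFNB1 (0.0545) turned in the A549 knockdown, EPHA1 (-0.0262) in H358, EPHB4 (-0.0103) in the overexpression, and EPHA2 (-0.196) and EFNA1 (-0.308) in the difference of the lines. With a library left out, the range crossed 0 for EFNB2 (-0.192 to 0.137), EFNA1 (-0.187 to 0.016) and EPHB2 (-0.0475 to 0.202) in the A549 knockdown, EPHB4 (-0.0956 to 0.00425) and EFNA4 (-0.00225 to 0.138) in H358, EPHB3 (-0.0299 to 0.279) and EFNA4 (-0.0692 to 0.282) in the overexpression, and EFNA1 (-0.125 to 0.124), EPHA1 (-0.822 to 0.0415) and EPHA2 (-0.00124 to 0.305) in the difference; the cause was not tested. Replicate numbers did not pair the libraries: correlations of same-numbered deviations lay between -0.04 and 0.07. At this depth genes with few reads, such as EPHA1 and EPHB3 in A549, allow only large changes to be called.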
